A study of Mus musculus with 24 samples.

Results

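Layer 6b neurons of mouse primary motor cortex were taken from 12 single-cell 3′ RNA libraries (10x Genomics), in which each captured transcript carries a unique molecular identifier (UMI). Cells were kept with at least 1000 UMIs, 500 genes and at most 20% mitochondrial UMIs. A kept cell was counted as a layer 6b neuron if it held at least 1 UMI of Slc17a7, the vesicular glutamate transporter of cortical excitatory neurons, no UMI of Gad1 or Gad2, which make GABA, and at least 1 UMI of both Cplx3 and Nxph4. The cells were thus chosen by their own UMIs of these 5 genes, whose values are given as description only. The rule found 638 cells among 18395 glutamatergic neurons (Slc17a7 present, Gad1 and Gad2 absent), 50361 kept motor cortex cells and 103715 kept cells of the 23 libraries read (of 24 in the series). The other 17757 glutamatergic neurons served as the comparison class.

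All motor cortex mice carried Fos-CreER and Ai9. CreER is made from the Fos promoter, so 4-hydroxytamoxifen (4-OHT) marks cells with recent Fos activity, and Ai9 then keeps the red reporter tdTomato on in them. Early mice practised reaching with a forelimb for 2 days and late mice for 8 days before labelling, and control mice were given 4-OHT but no training. Tissue was collected 3 days after labelling, papain-digested, and pooled from 2 mice, whose label numbers start with M and F, into 1 library per hemisphere. Each stage had 2 pools, which are the replicates. Tests of stage set differences against the spread between pools. Tests of cell classes and hemispheres set them against the spread of the differences within pools. No age was given. Hemispheres were named contralateral and ipsilateral in trained mice and right and left in controls.

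Layer 6b is the thin deepest sheet of cortex, above the white matter, and holds neurons that survive from the embryonic subplate. Cplx3 encodes a complexin, which clamps and promotes vesicle fusion, and Nxph4 a neurexophilin, a secreted ligand of neurexins. Layer 6b neurons are known for responding to orexin, dopamine and acetylcholine, and for axons to layer 1, to other cortical areas and to higher-order thalamus.

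The 12 libraries held 541 to 8477 barcodes and 5260446 to 30470621 UMIs, with 9 to 83 layer 6b neurons each. The left library of control pool 1 was the smallest, with 541 barcodes and 9 of these neurons. In 3 control libraries (both of control pool 1 and the left of control pool 2) Xist, which is transcribed in female cells, was at 0.100 to 0.391 UMIs per 1000000 UMIs (CPM), against 296 to 837 CPM in the other 9, although every pool is labelled with M and F animals. Barcodes shared between libraries put control pool 1 and late pool 1 in kit class A and the other 4 pools in class B. Class A coincides with 1 sequencing batch in the labels, and control pool 2 and early pool 1 share another. Early pools were all of class B.

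Layer 6b neurons made up 3.47% ± 0.700 of glutamatergic neurons (SD, n = 6 pools) and 1.27% of kept cortical cells (95% Wilson interval 1.17 to 1.37%). The pools held 77 and 113 such cells in control, 87 and 106 in early and 91 and 164 in late mice. As shares of glutamatergic neurons these were 3.11% and 3.11% in control, 4.00% and 3.18% in early and 2.79% and 4.64% in late pools. Late pools held both the lowest and the highest share, and the stages overlapped apart from early against control. The early pools were 0.477 percentage points above control (exact two-sided permutation p = 0.333, the smallest that 2 pools against 2 allow), the late pools 0.605 above control (exact p = 1) and 0.128 above early (exact p = 1), with Benjamini-Hochberg adjusted p = 1 for all 3. With 2 UMIs of both genes required, late pool 2 was at 2.21%, the early pools at 3.40% and 1.77% lay on both sides of the control pools at 2.51% and 2.45%, and the difference between early and control was 0.106 points. With the first gate, the difference between early and control was 0.0690 points without early pool 1 and 0.884 points without early pool 2. Late minus control was -0.319 points without late pool 2 and 1.529 without late pool 1, and late minus early -0.796 and 1.053. With 2 UMIs of both genes these differences were -0.270 and -0.376 points. After thinning each cell to 2000 UMIs before gating, the shares were 1.40 to 1.91% (mean 1.63% ± 0.195, SD, n = 6 pools), with late pool 2 again highest at 1.91%. The order of the pools therefore differed between gates. These intervals cover counting error only.

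**Figure D1:**
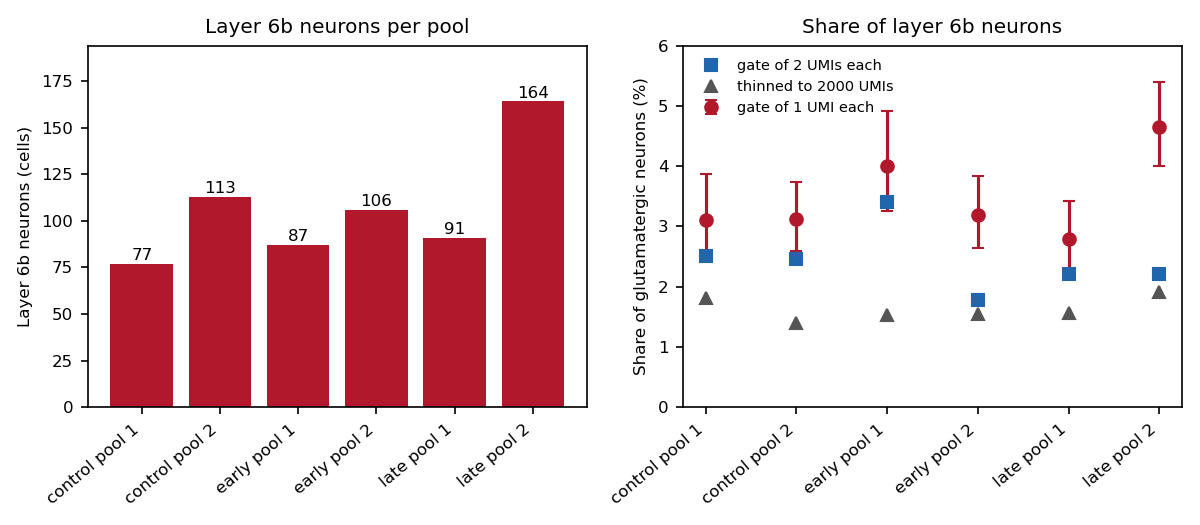
Layer 6b neurons per motor cortex pool. Left, bars give the cells found by the rule (77 to 164). Right, the share of glutamatergic neurons in percent with 95% Wilson intervals (red circles), with 2 UMIs of both genes required (blue squares) and after thinning to 2000 UMIs (grey triangles). Late pool 2 is highest with the first gate and after thinning, and lies among the other pools with the stricter gate.

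The gated cells held a median of 11424 UMIs and 4299 genes, against 7135 UMIs and 3336 genes in other glutamatergic neurons. Their medians spanned 8129 to 22515 UMIs over the 6 pools. The gate needs UMIs of both Cplx3 and Nxph4, which are seen more often in cells with many UMIs. Glutamatergic neurons gated by Foxp2 and Syt6 had a median of 10221 UMIs, and those gated by Tshz2 and Vwc2l 7693. The median cell held 17 Cplx3 UMIs but 2 Nxph4 UMIs, and 201 of the 638 cells were admitted by a single Nxph4 UMI and 12 by a single Cplx3 UMI. Just outside the gate lay 890 glutamatergic neurons with Cplx3 and no Nxph4 and 48 with Nxph4 and no Cplx3. Ctgf, a secreted matricellular factor and a layer 6b marker that the gate did not use, was at 852 CPM over all gated cells, 883 CPM in the 434 cells with 2 or more UMIs of both genes and 423 CPM in the 9 cells with 1 of each. It was at 709 CPM in the 124 neurons with at least 10 Cplx3 UMIs and no Nxph4, 51.3 CPM in those with Nxph4 alone and 9.21 CPM in those with neither. Ctgf was thus high in strongly Cplx3-positive cells on both sides of the Nxph4 threshold. Rprm, a corticothalamic gene, was at 17.4 CPM in the 434 cells and 758 CPM in the 48 with Nxph4 alone.

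The gate was also applied to a non-neuronal class. None of 8241 microglia-gated cells (Cx3cr1 and P2ry12 present, Slc17a7 absent) carried both genes, which allows a share of up to 0.0364% of cells with both. Cplx3 was seen in 0.910% and Nxph4 in 0.0607% of them, at a median of 1956 UMIs against 11424 in layer 6b neurons, so cells with both would be rare at this depth whatever their source, and the count of 0 says little on the gate. In each library the cells with the highest Scrublet scores were called doublets, up to a share of 0.8% per 1000 barcodes. The number called is thus set by the size of the library. They included 25 layer 6b neurons (3.92%, against 5.14% of other glutamatergic neurons), which were kept in the main values. Between libraries, 0 barcodes were shared among layer 6b neurons, and 7 of their barcodes also passed in another motor cortex library.

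The label was set beside 10 layer 6b or subplate markers that the gate did not use. All 10 were called higher than in other glutamatergic neurons by edgeR, with a median log2 difference of 3.54 beside -0.04 over all genes. In that comparison 47.9% of 14860 genes were called (22.6% higher), so a call alone is common and the size of the difference carries the description. The gate and the tested genes come from the same cells, and genes of the gates were left out of the tests between cell classes. The marker list was chosen with earlier results of these data known, so its count is description and no independent check of the label. Ctgf was at 354 and 924 CPM in the control, 973 and 1414 in the early and 294 and 1017 in the late pools, against 3.71 to 48.5 CPM in other glutamatergic neurons (log2 difference 5.53, SE 0.14, edgeR adjusted p = 1.51e-29). Its lowest values in both classes of cells came from the kit class A pools, and layer 6b neurons were higher in 6 of 6 pools. Moxd1, a monooxygenase-like protein, was at 32.9 to 52.9 CPM (median 42.7) in layer 6b neurons and 0.150 to 1.01 CPM elsewhere. Tmem163, a zinc-binding vesicle protein, was at 188 to 256 CPM (median 203), against 7.25 to 13.9 CPM. These 3 genes showed no overlap between the classes, as 18.7% of all genes did not.

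The share of cells with a marker UMI was lower in thinned cells. Ctgf was seen in 92.1% of layer 6b neurons (mean of 6 pools) and 6.21% of other glutamatergic neurons, and after thinning to 2000 UMIs in 67.6% and 2.60%, with 0.354% of microglia-gated cells as background. Thinning kept 632 of 638 layer 6b, 16579 of 17757 other glutamatergic and 3948 of 8241 microglia-gated cells. Thinned shares were 33.4% for Tmem163, 33.7% for Nr4a2 and 8.18% for Moxd1, against 1.59%, 7.88% and 0.0446% in other glutamatergic neurons. Unthinned, 204 cells held both Ctgf and Moxd1, 391 Ctgf alone, 3 Moxd1 alone and 40 neither. With Ctgf in nearly all cells, these counts say little on whether the 2 genes go together. Rprm was seen in 2.18% of thinned layer 6b neurons against 28.5% of other glutamatergic neurons, and Cux2, an upper-layer factor, in 0.251% against 12.4%.

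Among all genes, the 15 highest by the naming rule were led by Ctgf and by Syndig1l, a synapse differentiation protein (65.5 ± 16.7 against 1.86 ± 0.561 CPM, log2 difference 5.20). Next came Svil, an actin-binding supervillin (4.42), Tmem163 (4.39), Clic5, a chloride intracellular channel protein (4.23), Tmem40 (4.15) and Vwc2, a secreted antagonist of bone morphogenetic protein (3.97). Inpp4b, a phosphoinositide phosphatase, differed by 3.84, the cadherin Cdh24 by 3.38 and Ly6g6e by 3.32. Igfbp5 binds insulin-like growth factors and had the smallest adjusted p of the 15. It was at 317 to 579 CPM in layer 6b neurons and 33.6 to 52.3 CPM elsewhere (log2 difference 3.31, SE 0.06, edgeR adjusted p = 1.97e-33). Pcsk5, a proprotein convertase (3.24), Lpar1, a receptor for lysophosphatidic acid (3.24), Cidea, a lipid droplet protein (3.18), and Adra2a, the alpha-2A adrenergic receptor (3.05), completed the group. In all 15 the lowest layer 6b pool lay above the highest pool of other glutamatergic neurons, as the naming rule requires, and 18.7% of all genes did not overlap.

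The 10 lowest genes were at a few CPM in layer 6b neurons. Slc30a3, the transporter that loads zinc into synaptic vesicles, was at 0.536 to 4.54 CPM, against 117 to 147 CPM (log2 difference -5.97, SE 0.16, edgeR adjusted p = 9.26e-29). Rtn4r, the Nogo receptor, and its relative Rtn4rl1 were lower too, with log2 differences of -6.10 and -5.53. C1ql3, a secreted synaptic organiser, was at 4.61 ± 3.41 against 168 ± 28.1 CPM (-5.34). The others were Stum (-6.31), Fam19a1 (-5.70), Cux2 (-5.64), Stxbp6, a syntaxin-binding protein (-5.64), the receptor phosphatase Ptprk (-5.45) and the long non-coding RNA Pantr1 (-5.25). Both groups kept their direction and their call in every alternative run, and 1052 genes met the same criteria of level and separation.

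**Figure D2:**
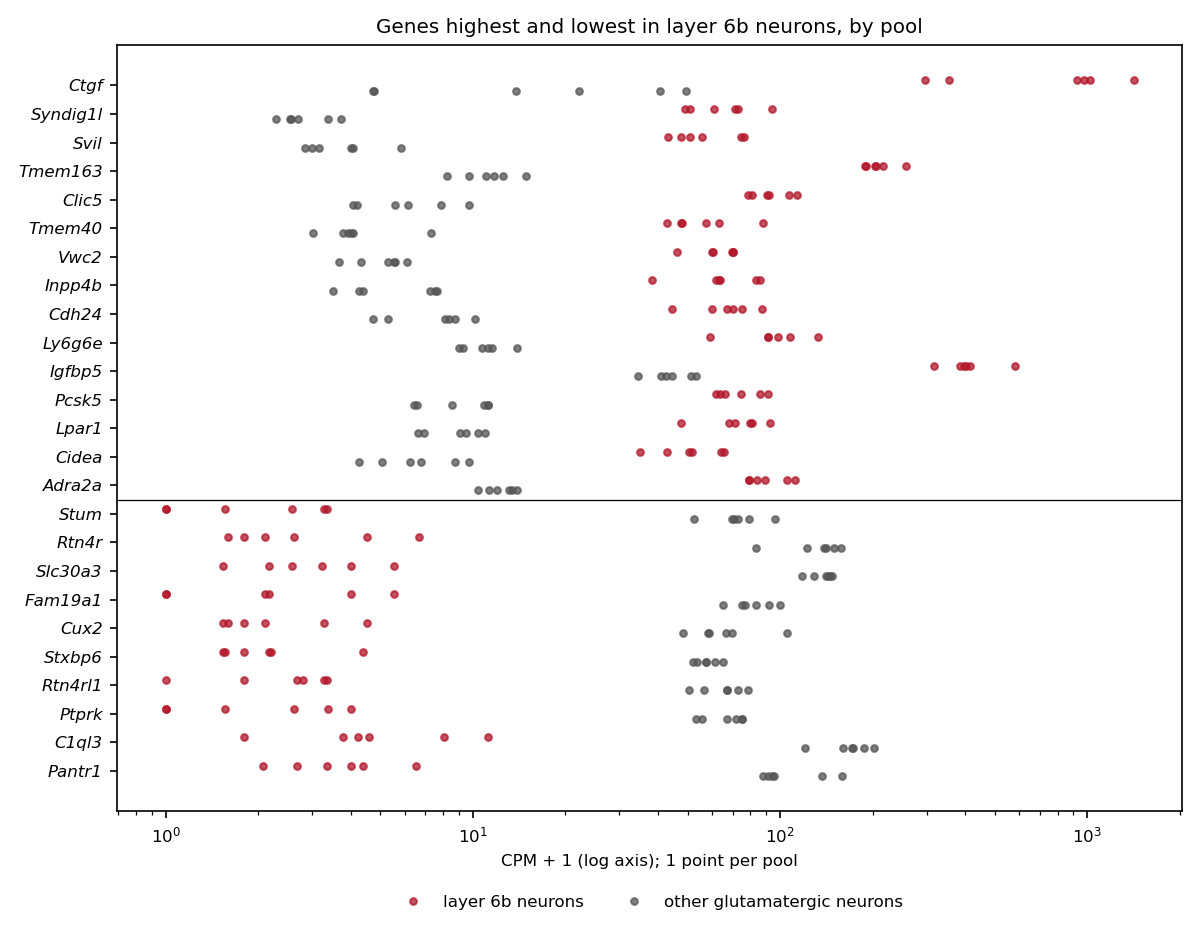
The 15 highest and 10 lowest genes in layer 6b neurons. Each point is 1 pool, as CPM + 1 on a log axis, with layer 6b neurons in red and other glutamatergic neurons in grey (6 pools each). The classes do not overlap for any of the 25 genes, and among the 15 highest Ctgf shows the widest spread between pools.

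Ctgf (ENSMUSG00000019997) lies at chr10:24595442-24598683 on the plus strand, Tmem163 (ENSMUSG00000026347) at chr1:127486546-127679548 and Igfbp5 (ENSMUSG00000026185) at chr1:72857932-72874884, both on the minus strand, and Slc30a3 (ENSMUSG00000029151) at chr5:31086106-31108237 on the minus strand (GENCODE M21 genes, GRCm38). Start regions are shown for a gate gene and for 3 genes that set these neurons apart, from 250 bases before to 50 bases after the RefSeq start, 5′ to 3′ on the gene's strand (GRCm38.p6, minus strand in all 4). Capitals mark a match to TATAAA, the TATA box, to AAAGGTCA, the element bound by NR4A factors, or to the full palindromic NFI site, searched on both strands. The windows are chr9:57606232-57606531 for Cplx3, chr1:127677972-127678271 for Tmem163, chr1:72874816-72875115 for Igfbp5 and chr2:57123954-57124253 for Nr4a2.
Cplx3: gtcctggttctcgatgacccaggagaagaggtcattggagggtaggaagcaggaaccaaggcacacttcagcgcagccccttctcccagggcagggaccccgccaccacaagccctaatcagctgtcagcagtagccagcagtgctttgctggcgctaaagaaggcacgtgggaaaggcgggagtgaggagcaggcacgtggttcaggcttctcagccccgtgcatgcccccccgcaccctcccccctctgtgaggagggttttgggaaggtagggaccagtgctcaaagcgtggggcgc
Tmem163: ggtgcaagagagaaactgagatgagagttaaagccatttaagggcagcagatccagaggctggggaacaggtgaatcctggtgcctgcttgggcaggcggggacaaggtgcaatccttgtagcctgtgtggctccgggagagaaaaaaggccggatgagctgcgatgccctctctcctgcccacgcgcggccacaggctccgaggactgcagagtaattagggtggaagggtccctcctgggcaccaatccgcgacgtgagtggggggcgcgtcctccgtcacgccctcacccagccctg
Igfbp5: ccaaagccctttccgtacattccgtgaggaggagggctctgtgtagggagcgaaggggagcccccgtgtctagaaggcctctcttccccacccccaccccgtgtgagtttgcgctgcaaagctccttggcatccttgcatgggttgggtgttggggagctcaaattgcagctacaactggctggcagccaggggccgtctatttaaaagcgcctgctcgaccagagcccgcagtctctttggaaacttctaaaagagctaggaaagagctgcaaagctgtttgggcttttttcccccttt
Nr4a2: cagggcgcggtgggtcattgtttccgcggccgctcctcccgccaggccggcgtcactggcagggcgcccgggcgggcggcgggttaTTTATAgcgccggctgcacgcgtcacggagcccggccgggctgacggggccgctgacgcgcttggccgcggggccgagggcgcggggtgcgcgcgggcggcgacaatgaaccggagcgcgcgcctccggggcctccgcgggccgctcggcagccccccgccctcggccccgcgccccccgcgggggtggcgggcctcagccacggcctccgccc
The only match in these 4 windows was TTTATA, the TATA box on the opposite strand, 164 bases before the Nr4a2 start. The Nr4a2 window was 81.7% G or C, and the other 3 were 56.3 to 62.7%. TATAAA occurred in 13.6% of 32851 windows of this length, AAAGGTCA in 1.51% and the NFI site in 0.0365%. Of the 15 highest genes, 10 had a window and 1 of them held TATAAA. Of the 10 lowest genes, 7 had a window and 2 held TATAAA. The other 2 motifs matched in 0 of these 17 genes.

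Transcription factors of cortical layers differed in both directions. Of 18 listed, 9 were higher, 8 lower and 1 was not called (median log2 difference 0.13, beside -0.04 over all genes, of which 22.6% were called higher and 25.3% lower). Nr4a2, an orphan nuclear receptor long used to mark subplate-derived cells, was at 201 to 313 CPM (median 218), against 40.5 to 73.0 CPM (log2 difference 2.22). Tle4, a corepressor of deep layers (1.57), Nfia (1.33), Nfib (0.96) and Zfpm2 (1.02) were also higher. Rorb, a layer 4 factor, was at 0 to 6.11 CPM (median 1.98), against 79.2 to 110.2 CPM (-5.23). Pou3f1 (-4.10), Etv1 (-3.04), Foxp1 (-2.18) and Lmo4 (-1.79) were lower as well. Sox5 was not called (-0.08, edgeR adjusted p = 0.397).

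Receptors for neuromodulators differed in both directions, and some were higher in layer 6b neurons by a wide margin. Of 30 listed receptors 26 passed the filter, and 12 were higher, 9 lower and 5 not called (median log2 difference 0.31), beside 22.6% of all genes called higher and 25.3% lower. Drd1, the D1 dopamine receptor, was at 37.6 to 91.8 CPM (median 77.7) in layer 6b neurons and 6.13 to 15.7 CPM in other glutamatergic neurons (2.71, SE 0.10, edgeR adjusted p = 1.49e-24). Adra2a was at 78.2 to 111 CPM (median 85.7), against 9.42 to 12.9 CPM. The serotonin receptor Htr2a was at 72.9 to 124 CPM (median 88.2), against 24.1 to 36.5 CPM (1.75). These 3 receptors did not overlap between the classes, as 18.7% of all genes did not. Of the nicotinic acetylcholine receptor subunits, Chrna4 (1.99) and Chrnb2 (0.99) were higher, and Chrna5 (-0.19, edgeR adjusted p = 0.496) and Chrna7 (0.74, edgeR adjusted p = 0.171) were not called.

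The orexin receptor Hcrtr2 was low in layer 6b neurons, at 4.70 to 14.5 CPM (median 8.66), against 2.61 to 8.39 CPM elsewhere, with overlapping classes (0.82, SE 0.22, edgeR adjusted p = 0.0022). Thinned cells held it in 0.969% of layer 6b and 0.942% of other glutamatergic neurons. Cnr1, the cannabinoid receptor, was at 2.35 to 5.67 CPM (median 4.17), against 48.3 to 67.3 CPM (-3.79), and Npy1r, a neuropeptide Y receptor, was lower too (-1.40). Oprk1, the kappa opioid receptor, had 0 UMIs among 8327693 in layer 6b neurons and 1536 UMIs, 10.4 CPM, in the other class, which makes it at least 29.0-fold lower with a floor of 3 counts over the group. The list's median was the same with Oprk1 set to that bound.

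Immediate early genes, which neurons switch on within minutes of activity, were mostly lower in layer 6b neurons. Of 18 listed, 15 were lower, 2 higher (Nr4a2, and Nr4a3 by 0.33) and 1 (Ier2, 0.11, edgeR adjusted p = 0.273) was not called, with a median log2 difference of -0.79, beside 25.3% of all genes called lower. Fos was at 99.8 and 104 CPM in the control, 104 and 135 in the early and 79.1 and 127 in the late pools, and other glutamatergic neurons of the same pools were at 118, 185, 221, 188, 187 and 159.9 CPM. Layer 6b neurons had the lower Fos level in 6 of 6 pools although the ranges overlapped (-0.66, SE 0.08, edgeR adjusted p = 6.46e-09). Arc, whose product acts at synapses, was at 47.4 to 97.8 CPM (median 72.1), against 110.4 to 213 CPM without overlap (-1.08). Egr1 (-0.76) and Npas4 (-0.82) were lower in 6 of 6 pools with overlapping ranges. Bdnf, a neurotrophin, was at 19.5 to 45.1 CPM (median 38.1), against 159 to 194 CPM (-2.25), and Egr2 at 0 to 4.75 CPM (median 0.856), against 11.7 to 25.4 CPM (-3.79). Dissociation also induces such genes, and of 9 dissociation and heat shock genes 4 were lower, 2 higher and 3 not called (median -0.16), beside 25.3% of all genes called lower and 22.6% higher.

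**Figure D3:**
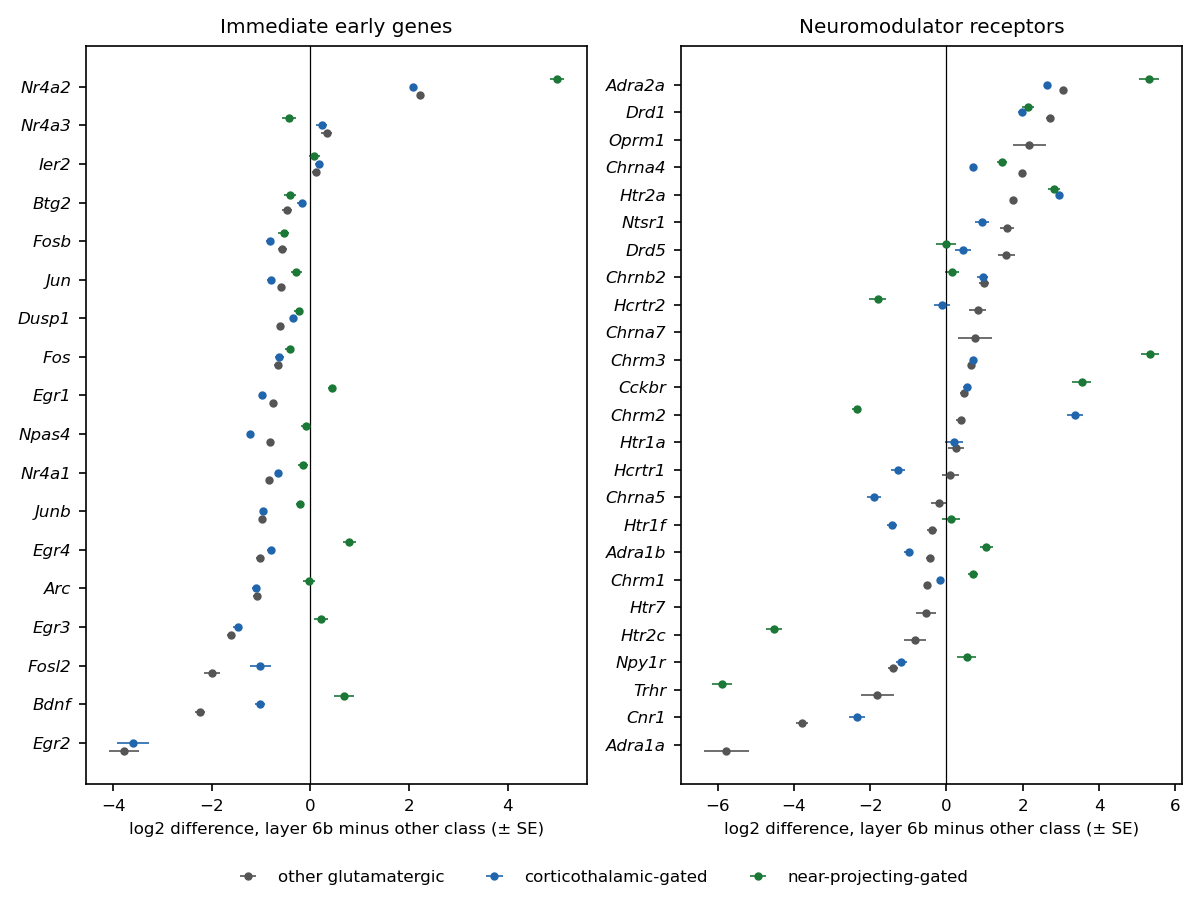
Log2 difference (± SE) of layer 6b neurons against other glutamatergic (grey), corticothalamic-gated (blue) and near-projecting-gated neurons (green) for the immediate early genes (left) and the neuromodulator receptors (right). Genes that failed the filter in a comparison, and Oprk1 with 0 UMIs, have no point. Most immediate early genes lie below 0 against the first 2 classes but scatter around 0 against near-projecting-gated neurons, and Nr4a2 stands above 0 against all 3.

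The release machinery, to which the gate gene Cplx3 belongs, was also uneven. Of 11 tested genes 7 were higher and 4 lower (median 0.21), beside 22.6% and 25.3% of all genes. Syt1, the fast calcium sensor, was at 2375 to 3620.1 CPM, against 1593 to 2310.2 CPM (0.67). The complexin Cplx2 was at 139 to 287 CPM (median 207), against 419.9 to 666 CPM (-1.30), while Cplx1 was higher (0.52). Cplx3 itself was at 1496 to 1964 CPM in the gated cells and 14.2 to 52.4 CPM outside them. The gate selects for Cplx3 but asks for only 1 UMI, and it leaves 890 Cplx3-positive neurons without Nxph4 outside. Among neurexophilins and neurexins, Nxph3 was higher (2.55), Nrxn2, Nrxn3 and Nxph1 were not called, and Nxph2 had 0 UMIs, which makes it at least 6.94-fold lower. Nrgn, which binds calmodulin in dendrites, was at 1019 ± 299 against 5502 ± 954 CPM (SD, n = 6 pools; log2 difference -2.39).

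Markers of other cell types were summed as well. GABAergic markers were at 26.4 to 38.0 CPM in layer 6b neurons over the pools and 157 to 258 CPM in other glutamatergic neurons, and oligodendrocyte markers at 22.3 to 74.5 and 85.2 to 291 CPM. Layer 6 corticothalamic markers were at 758 to 992 against 615 to 877 CPM, layer 5 extratelencephalic markers at 202 to 294 against 188 to 261 CPM and mural markers at 18.6 to 48.3 against 23.1 to 65.3 CPM, with overlapping ranges. All 7 microglial genes were lower than in other glutamatergic neurons, with sums of 22.2 to 187 CPM over the pools (25.3% of all genes were called lower). Against corticothalamic-gated neurons 0 of 5 tested were called (44.1% of all genes were), and against near-projecting-gated neurons C1qa (1.05) and C1qb (1.23) were higher and the third tested was not called (22.9% of all genes were called higher). Of 5 astrocyte genes, Slc1a2, a glutamate transporter, was at 2107 to 2956 CPM in layer 6b neurons and 565 to 1002 CPM elsewhere (log2 difference 1.77), higher in 6 of 6 pools. The defining astrocyte genes Aqp4, Gja1 and Slc1a3 were at 0.196, 1.52 and 2.11 CPM. Slc17a6, the second vesicular glutamate transporter, was at 4.17 ± 1.20 against 20.6 ± 3.77 CPM.

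Layer 6 corticothalamic neurons are the nearest neighbours in depth, and were gated by Foxp2 and Syt6 (2293 cells). Against them 44.1% of 10677 genes were called (22.6% higher and 21.5% lower), and 14.1% did not overlap. Tmem163 was at 0.483 to 3.98 CPM in corticothalamic-gated neurons, far below its layer 6b level (log2 difference 6.31, SE 0.13, edgeR adjusted p = 1.6e-39). Ctgf (5.43), the glycosyltransferase Galnt14 (5.24), Syndig1l (4.89), Svil (4.86) and Tmem40 (4.54) were the other highest genes. Rprm was at 2.35 to 31.8 CPM in layer 6b and 1042 to 1413 CPM in corticothalamic-gated neurons (-5.77), with the 2 classes fully apart. Sebox (-6.04), Fam43a (-5.83), the homeobox factor Meis2 (-5.13), Rtn4r (-4.95) and Crym, a thyroid hormone-binding protein (-4.52), were the other lowest by that rule. Of the layer 6b markers, 9 of 10 were higher and Hcrtr2 was not called (-0.12, edgeR adjusted p = 0.706). Tle4 (0.30) differed little, and Nfia (0.12, edgeR adjusted p = 0.121) and Nfib (-0.02, edgeR adjusted p = 0.699) were not called. Immediate early genes were again lower in 14 of 18 cases (21.5% of all genes were), higher in 1, and not called in 3 (median -0.81).

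Near-projecting neurons, gated by Tshz2 and Vwc2l (561 cells), share some layer 6b markers, and 45.3% of 9409 genes were called against them (22.9% higher and 22.4% lower), with 15% not overlapping. Highest were Lpar1 (6.70), Vwc2, the adhesion molecule Alcam (5.95), Thrsp (5.68), the sulfatase Sulf1 (5.57) and the muscarinic receptor Chrm3 (5.34). Alcam was at 312 to 479.7 CPM in layer 6b and 0 to 16.1 CPM in near-projecting-gated neurons. Lowest by the same rule were the neuropeptide Grp (-8.28), the priming factor Unc13c (-6.85), Abi3bp (-6.44), Etv1 (-6.26), Sla2 (-5.95) and Cd24a (-5.91). Of the layer 6b markers 8 of 10 were higher, Nxph3 was not called (0.07, edgeR adjusted p = 0.477) and Hcrtr2 was lower (-1.80). Near-projecting-gated neurons held 11.3 to 43.1 CPM of Hcrtr2. Immediate early genes went both ways, with 4 higher, 7 lower and 5 not called of 16 (median -0.13). Egr1 (0.43), Egr4 (0.79) and Bdnf (0.68) were higher here, and Fos was lower (-0.43). The named genes of both comparisons kept their direction and call in every alternative run.

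Whether layer 6b neurons had been labelled by Fos activity was read from the reporter transcript (tdtomato, or wpre, an element often placed downstream of a transgene, as listed in the files). At least 1 reporter UMI was found in 15.6% and 25.7% of layer 6b neurons in the control, 31.0% and 12.3% in the early and 24.2% and 13.4% in the late pools, against 17.8, 22.6, 29.0, 13.9, 23.3 and 13.5% of other glutamatergic neurons in the same order. The shares were higher in layer 6b neurons in 3 of 6 pools, with a mean difference of 0.323 percentage points ± 2.05 (SD, n = 6 pools; exact two-sided sign-flip permutation p = 0.75). Microglia-gated cells, taken as the background class, held it in 3.44 to 10.2% of cells. After thinning to 2000 UMIs the shares were 5.26, 1.79, 5.81, 6.73, 3.30 and 1.84% in layer 6b, 7.65, 7.31, 8.38, 7.04, 9.29 and 4.98% in other glutamatergic and 6.43, 6.50, 6.95, 5.94, 8.48 and 6.06% in microglia-gated cells. Thinned layer 6b neurons were below other glutamatergic neurons in 6 of 6 pools (mean difference -3.32 points ± 2.12, exact p = 0.03125, the smallest possible). They were below the microglial share in 5 of 6 pools, and other glutamatergic neurons were above it in 5 of 6. Layer 6b and microglia-gated cells were not tested against each other, and no labelling is read from the thinned shares.

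The summed level of wpre was also lower in layer 6b neurons. It was at 17.6 and 15.6 CPM in the control, 17.7 and 38.6 in the early and 29.3 and 16.2 in the late pools in layer 6b neurons, and at 27.7 to 81.8 CPM in other glutamatergic neurons (log2 difference -1.46, SE 0.13, edgeR adjusted p = 6.76e-12, with overlapping ranges). Against corticothalamic-gated neurons the difference was -0.44 and against near-projecting-gated neurons 0.64. Between stages, the share of layer 6b neurons with a reporter UMI differed by 1.03 points for early against control (exact permutation p = 1), -1.83 for late against control (exact p = 0.667) and -2.85 for late against early (exact p = 1). After thinning, these differences were 2.75 (exact p = 0.333, the smallest possible), -0.956 (exact p = 1) and -3.70 points (exact p = 0.333). Early pool 2 had the highest wpre level and the lowest unthinned share of positive cells, and it also had the lowest UMIs per cell.

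**Figure D4:**
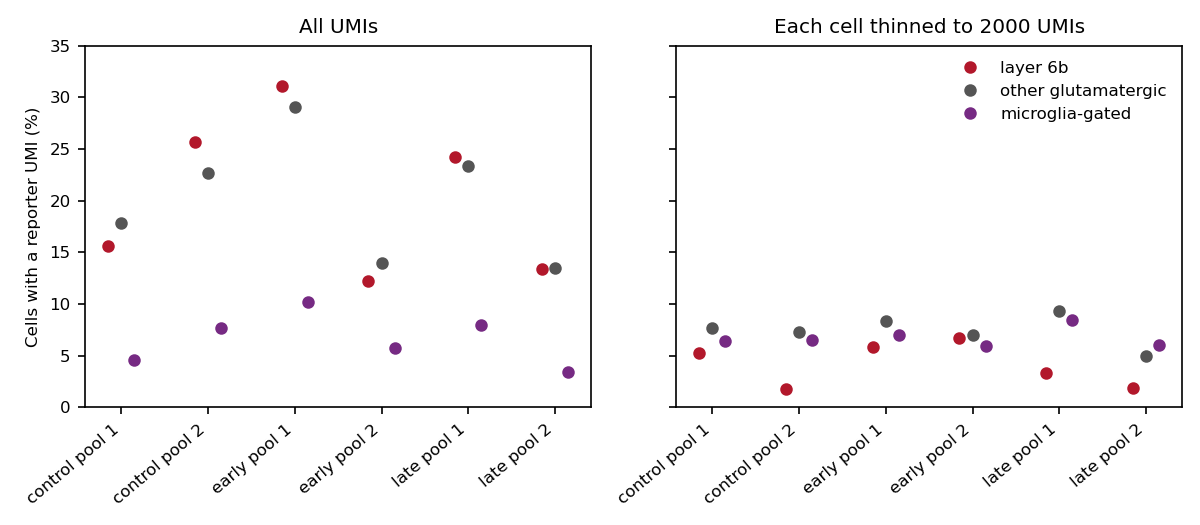
Share of cells with at least 1 reporter UMI (tdtomato or wpre) per pool, in percent, over all UMIs (left) and after thinning each cell to 2000 UMIs (right). Points are layer 6b neurons (red), other glutamatergic neurons (grey) and microglia-gated cells (purple). After thinning, layer 6b neurons lie below other glutamatergic neurons in all 6 pools.

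Training stage was compared over the 6 pools in 1 fit for all stages, with kit class as a covariate. The fit leaves few residual degrees of freedom. As early pools were all of class B, the kit term is estimated from control and late pools. Late pools thus enter the change between early and control, and a fitted log2 change can differ from the ratio of mean CPM. Xist was near 0 in both libraries of control pool 1 and the left library of control pool 2. It was at 296 CPM or more in every early and late library. Comparisons with control therefore carry this difference too, and the sex make-up of the pools was not modelled or tested. Between early and control, edgeR called 15 of 10453 genes (0.143%) in layer 6b neurons, all higher in early pools. Of the 7 microglial markers 5 were tested, and 3 of these were called higher (median log2 change 2.41). Between late and control it called 4 genes (0.0383%), all higher, and between late and early 2 genes (0.0191%), both lower. In the same order 397, 515 and 271 genes had an unadjusted p below 0.05, and DESeq2 called 5, 0 and 1. The 3 comparisons share pools. In other glutamatergic neurons 0 of 18188 genes were called in all 3. The change in layer 6b neurons differed from that in other glutamatergic neurons for 22, 15 and 12 of 17044 genes by the class-by-stage term (0.129%, 0.088% and 0.0704%).

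The chemokine Ccl4 was at 5.87 and 4.45 CPM in the control, 59.5 and 176 in the early and 51.4 and 7.80 in the late pools in layer 6b neurons (early against control log2 change 5.53, SE 0.58, edgeR adjusted p = 1.07e-05). Ccl3 was at 10.6 and 5.56 CPM in the control, 52.5 and 112 in the early and 49.1 and 8.40 in the late pools (4.42), and C1qb, a complement component, at 10.6 and 1.67 CPM in the control, 34.3 and 22.7 in the early and 58.6 and 12.6 in the late pools (3.89). Both early pools lay above both control pools for these genes (34.1% of all genes did not overlap between early and control, 23.6% between late and control and 25.8% between late and early), and late pool 2 lay close to the controls. Fitted changes can exceed the gap between mean levels, as for C1qb, whose means were 28.5 CPM in early and 6.12 CPM in control pools. The protease Ctss (4.82), the cytokine Il1a (4.70), Bcl2a1b (5.10), Cd83 (3.70), Tyrobp (3.41), C1qc (3.29) and C1qa (3.22) made up the 10 named by rule, and Sparc, Cxcl2, Tnf and Trem2 were among the others.

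A few cells carried these counts. In early pool 1, 1 of 87 layer 6b cells held 95 of 111 Ccl4 UMIs, and in early pool 2, 1 of 106 held 146 of 155. Cells called doublets held 94.6% and 94.2% of the Ccl4 UMIs of these pools. With doublets removed, edgeR called 0 genes between early and control and 0 between late and early, and 0 in all 3 comparisons without the cells that held a UMI of Cx3cr1, P2ry12, Tmem119 or Csf1r (363 and 380 genes for early against control at an unadjusted p under 0.05). Called genes such as C1qa and C1qb are microglial markers too. Removal by microglial markers therefore selects against the same signal, and its counts of 0 say little. The summed level of the 7 microglial genes in layer 6b neurons was 22.2 to 55.2 CPM in control, 110 to 115 in early and 67.2 to 187 in late pools, and over all kept cells 1191 to 1851, 1890 to 3124 and 1700 to 4973 CPM. Without the kit covariate 0 genes were called in all 3 comparisons, and within kit class B alone 36, 102 and 46. Class B holds 1 control pool, 1 late pool and 2 early pools, so these counts take the spread between replicates from the early pools alone. With a term for the sequencing batch that control pool 2 and early pool 1 share beside the kit class, which leaves 1 residual degree of freedom, 50, 28 and 14 genes were called (44, 21 and 6 of them higher), among them 15, 3 and 2 of the main calls.

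Between late and control the calls were C1qb (2.60), C1qa (2.43), Ctss (2.95) and Gm10288, a processed pseudogene whose reads can come from its parent gene (3.46). Gm10288 was at 5.87 and 0.556 CPM in the control, 3.75 and 6.80 in the early and 16.6 and 33.6 in the late pools, with late above early and control in every pool. Its late UMIs were spread over 16 and 48 cells. Gm10288 was not called in 9 of 19 alternatives, among them those with the batch term (2.41, edgeR adjusted p = 0.0847), without control pool 2 and without late pool 2 (1.503 in both), and its log2 change ranged from 1.503 to 5.75. With doublets removed 4 genes were called, of which Gm10288 was the 1 shared with the main calls. Between late and early the calls were Ccl3 (-2.85) and Ccl4 (-3.40). The late against control count was 0 without the left library of either control pool, the first of which had 9 layer 6b cells.

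**Figure D5:**
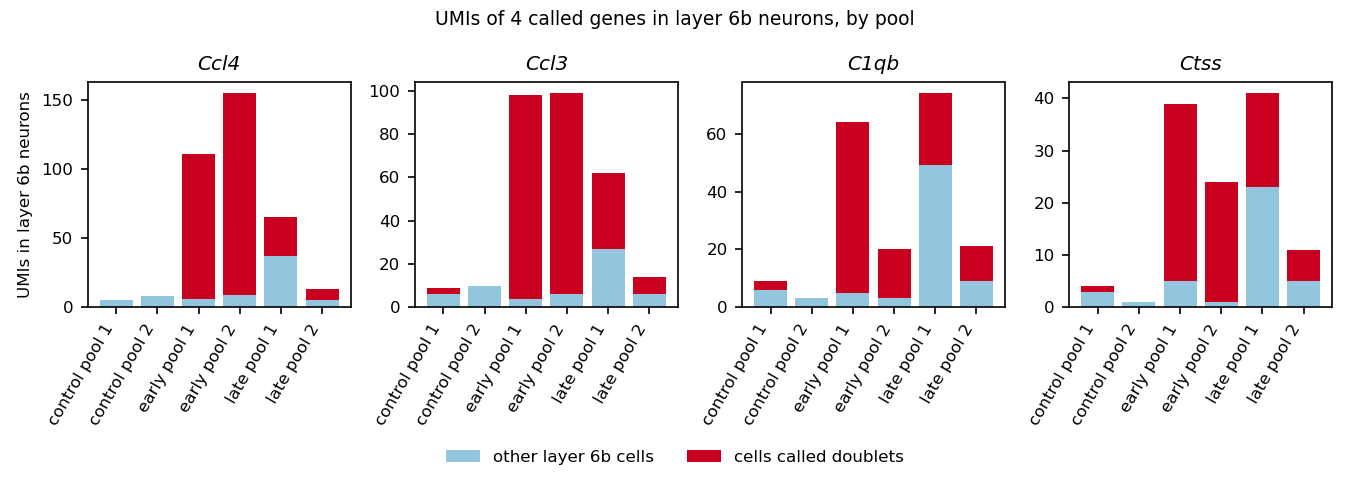
UMIs of Ccl4, Ccl3, C1qb and Ctss in layer 6b neurons of each pool (linear axes). Red bars are UMIs in cells called doublets and blue bars those in all other layer 6b cells. In both early pools most UMIs of all 4 genes lie in cells called doublets.

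Activity genes of layer 6b neurons were compared between stages. None of 17 tested immediate early genes was called in any of the 3 main comparisons, with median log2 changes of 0.08, 0.13 and 0.11. Of all genes 0.143%, 0.0383% and 0.0191% were called. A list of this size would thus seldom hold a call, and the count says nothing particular of these genes. Against control, 11 of the 17 were higher in early and 13 in late pools. The largest changes were those of Bdnf (0.97 in early and 1.17 in late pools), Btg2 (0.71 and 1.15) and Nr4a3 (0.90 and 0.70). These genes did not overlap with control, as 34.1% and 23.6% of all genes did not. Of 8 tested dissociation and heat shock genes, 7 were higher in early and 7 in late pools than in control. Their median log2 changes were 0.72 and 0.36, and 0 were called. The part of dissociation in the changes of the immediate early genes was not tested. Arc was at 79.9 and 97.8 CPM in the control, 64.3 and 59.0 in the early and 79.9 and 47.4 in the late pools, so early pools were below control (-0.41, SE 0.25, edgeR adjusted p = 1.00). Late against control it differed by -0.53 (SE 0.23, edgeR adjusted p = 0.981), and over the alternatives by -1.02 to 0.02, with edgeR adjusted p of 0.0371 to 1. Arc was called lower without control pool 1, without late pool 1 and in kit class B alone. With the kit term these are the same contrast, late pool 2 (47.4 CPM) against control pool 2 (97.8 CPM). The change was near 0 without control pool 2 or late pool 2, which both set late pool 1 against control pool 1 (79.9 CPM in each). Each contrast is 1 pool against 1, so the repeated calls are not separate results. Egr1 was at 270.1 and 555 CPM in the control, 369.8 and 355 in the early and 402 and 369 in the late pools, and control pools held both its lowest and its highest value. Npas4 was at 84.6 and 145 CPM in the control, 100.2 and 96.4 in the early and 97.3 and 135 in the late pools, with changes of -0.46 for early and 0.06 for late against control. Fos differed by 0.07 (SE 0.23) and 0.04 (SE 0.21). Ctgf (0.30 and -0.02) and Tmem163 (0.01 and -0.24, early and late against control) were not called either, and 0 of the 10 layer 6b markers passed in any stage comparison, beside the same low shares of all genes.

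Hemispheres were compared within the 4 trained pools, with 203 contralateral and 245 ipsilateral layer 6b neurons and the pool as a block. EdgeR called 5 of 8034 genes (0.0622%; 0.0498% higher and 0.0124% lower contralaterally), and DESeq2 called 0, with 387 at an unadjusted p under 0.05. No call separated the 4 contralateral from the 4 ipsilateral libraries (1.15% of all genes did), so none was named by rule, and the 5 are given after their values were seen. The haemoglobin Hbb-bs was at 105 CPM contralaterally and 23.7 ipsilaterally (2.11), and 318 of its 371 contralateral UMIs lay in 1 cell that was called a doublet. Ptn, a secreted growth factor, was at 1234 against 967 CPM (0.38), Mbp, a myelin gene, at 50.1 against 23.4 (1.16) and Xist at 249 against 167 (0.63). Myl4, a myosin light chain, was the 1 lower gene (64.5 against 109.9 CPM, -0.82). Fos (0.15, SE 0.13) and Arc (0.24, SE 0.17) were not called.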

How the data were processed

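The authors deposited raw UMI counts per gene and barcode. Per the submitters' processing notes, reads were processed with Cell Ranger 3.1.0 on GRCm38/mm10, while the file headers name 3.0.2. Per the labels' protocols, 10x kit v2 or v3 was used, which is not given per library. A right dorsal striatum control library was not analysed here. From the deposited counts, cells passing the rule were summed per pool and class. Sums were tested with edgeR 4.0.16 (TMM, filterByExpr, quasi-likelihood F test, Benjamini-Hochberg adjusted p under 0.05) in R 4.3.3, with stage and kit class as terms, or with the pool as block for comparisons of classes and hemispheres. CPM are UMIs per 1000000 UMIs of the summed cells. Sample comparisons of shares used exact two-sided permutation tests (scipy 1.17.1). Doublets were the kept cells with the highest Scrublet scores (scanpy 1.11.5) in each library, up to a share of 0.8% per 1000 barcodes. Scripts were tested on simulated data. Members and gene lists were chosen with earlier results of these data known. Named genes were, between classes, called genes with a mean of at least 50 CPM in the higher class and no overlap over the pools, taken by size of the log2 difference (15 higher and 10 lower against other glutamatergic neurons, 6 each way against the other classes). Between stages and hemispheres they were at most 10 called genes without overlap, by adjusted p. Fos, Arc, Egr1, Npas4, the reporter and list members were named whatever their values, and a few genes are not reported here. Promoters came from RefSeq (GRCm38.p6) and positions from GENCODE M21, which held 54165 of 54235 features by identifier. Alternatives covered normalisation, filter, tool, covariates, gates, doublets, depth and each pool left out.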

Additional observations from a re-analysis of the deposited data

Results flagged for a closer look

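In early pool 2, layer 6b neurons held 579.5 CPM of Igfbp5 and 3.402 CPM of Stxbp6, each further from the other 5 pools than Dixon's test allows at 95%. These were 2 of 59 groups of 6 pools tested, and chance flags about 1 in 20.

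In the striatal libraries, which the comparisons do not use, 16 cells met the layer 6b gate among 53354 kept cells (0.0300%, 95% Wilson interval 0.0185 to 0.0487%). They were part of 240 striatal cells that met the glutamatergic gate, and their median was 11717 UMIs.

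The stage change of Ctgf differed between layer 6b and other glutamatergic neurons by -0.64 on the log2 scale for early against control, -1.43 for late against control and -0.80 for late against early, each called by the edgeR class-by-stage term (0.129%, 0.088% and 0.0704% of 17044 genes were called). Its level was low in both classes in the kit class A pools, and the part of kit class in these differences was not tested beyond the kit term of the fit. Outside the gate, Ctgf was at 183 CPM in the 890 neurons with Cplx3 and no Nxph4, and 9.21 CPM in the 16819 with neither. Late pool 2 had the highest Ctgf outside the gate (48.5 CPM) and the lowest median of Nxph4 inside it (1 UMI). The part of layer 6b cells that missed the Nxph4 threshold was not tested.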

How the results depend on the processing

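Named genes of the 3 class comparisons kept their direction and call in all alternatives run, and the counts were 4471, 2499 and 2715 without the replicate block, the pool (other glutamatergic, corticothalamic-gated and near-projecting-gated neurons in turn), 3976, 2358 and 1950 in kit class A alone, 6374 to 6821, 4178 to 4538 and 3437 to 4337 with 1 pool left out (7117, 4707 and 4259 as reported), and, for near-projecting-gated neurons, 2768 in cells of 4000 to 16000 UMIs. Without the filter on low counts, 35.2% of calls against other glutamatergic neurons were higher, against 47.1% with it, and the median of all genes moved to -0.44. DESeq2 called 6052, 3365 and 2926 genes.

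Stage counts rested on settings. For early against control they were 39 without the filter, 5 with DESeq2, 0 with doublets removed, 0 without cells holding a microglial marker, 0 without the kit covariate, 36 in kit class B, 25 per library, 9 without the left library of control pool 2 and 20 to 44 with 1 pool left out. Tyrobp was -0.51 with doublets removed. For late against control they were 47, 0 with DESeq2, 2 with 2 UMIs of both gate genes, 0 without marker-holding cells, 0 without the kit covariate, 102, 23, 0 without the left library of either control pool, and 22 to 103. For late against early they were 31, 1 with DESeq2, 0 with doublets removed, with the stricter gate, without marker-holding cells, without the kit covariate, per library and without either left control library, 46 in kit class B, and 10 to 49. Stages are tied by sequencing batch, control pool 1 with late pool 1 (kit class A) and control pool 2 with early pool 1. With a term for each, the counts were 50, 28 and 14. Terms for all batches would leave no residual degree of freedom. The alternatives that remove marker-holding cells or a left control library, add a batch term, or use 1 kit class between cell classes, were chosen after seeing the data. A stage fit with 1 pool left out, with the batch term or in kit class B has 1 residual degree of freedom, and a lone pool of a stage is assumed to vary like the other groups.

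Hemisphere calls were 14 without the filter, 0 with DESeq2, 0 without the replicate block and 2 to 15 with 1 pool left out, and Hbb-bs was -0.20 with doublets removed and -0.35 with the stricter gate. The share was 2.43% with the stricter gate and 1.63% after thinning. Differences in share reversed with the stricter gate (late minus control -0.2703, late minus early -0.3764 points), after thinning (early minus control -0.0660), without early pool 2 (late minus early -0.2791) and without late pool 2 (late minus control -0.319, late minus early -0.7958), and rose to 1.529 (late minus control) and 1.053 points (late minus early) without late pool 1, and late minus early to 0.5359 points without early pool 1. The reporter difference was -2.08 points with 2 UMIs required, -3.32 after thinning, -0.873 with the stricter gate, and -0.216 (without control pool 2) to 0.835 with 1 pool left out, with -0.0177 without early pool 1. Pool numbers are only names and pair no pools of different stages, so no block on them was fitted. The causes were not tested. The depth is limited by 2 pools a stage and 9 to 83 layer 6b cells a library.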

Other observations

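Potassium channels of layer 6b neurons were mostly lower than in other glutamatergic neurons. Of 15 listed genes 9 were lower, 3 higher and 3 not called by edgeR (median log2 difference -0.33, beside -0.04 over all genes, of which 25.3% were called lower and 22.6% higher). Kcnab1, an auxiliary subunit of Kv channels, went the other way, at 233 to 375 CPM (median 291) against 30.1 to 46.1 CPM (log2 difference 3.01), without overlap between the classes. Kcnq5, a subunit of the M-current, was at 1.17 to 3.60 CPM (median 3.00) against 49.2 to 73.1 CPM (log2 difference -4.35), and Kcnc2, a fast Kv3 channel, at 0.791 to 3.52 CPM (median 3.11) against 22.2 to 32.8 CPM (log2 difference -3.32). Of 13 ionotropic glutamate receptor subunits 8 were lower, 4 higher and 1 not called (median -0.29). The kainate receptor subunit Grik3 was at 119.5 to 149.7 CPM (median 139) against 40.1 to 60.2 CPM (log2 difference 1.54), and the AMPA receptor subunit Gria4 at 12.5 to 20.4 CPM (median 16.2) against 52.1 to 79.4 CPM (log2 difference -1.89).

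Of 15 listed matrix and secreted genes 12 were tested against other glutamatergic neurons, and 6 were higher, 4 lower and 2 not called (median 0.20), beside 22.6% and 25.3% of all genes. Cyr61, a relative of Ctgf, was at 83.9 to 148 CPM (median 114) against 39.1 to 72.3 CPM (log2 difference 0.90), and the axon guidance ligand Sema3e at 31.8 to 65.0 CPM (median 39.2) against 12.9 to 31.0 CPM (log2 difference 0.88). Against corticothalamic-gated neurons 3 of 8 tested were higher, 3 lower and 2 not called (median 0.01), beside 22.6% of all genes called higher and 21.5% lower, with Cyr61 lower (-0.33) and Sema3e higher (1.38). Against near-projecting-gated neurons 6 of 7 were higher and 1 lower (median 2.01), beside 22.9% and 22.4%, with Cyr61 higher (2.01) and Sema3e lower (-0.87).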
